A study of Mus musculus with 14 samples.

Results

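Acaa1b, Oit3, Gng4, Prss35, Podxl2 and Npy are 6 of 18193 genes with a symbol of their own on 14 Affymetrix mouse arrays. They were taken because their intensity was far lower after granulocyte colony-stimulating factor (G-CSF) in CD31+ cells of bone marrow and because they are neither bone-matrix nor red-cell genes. They were selected on the difference between G-CSF CD31+ and untreated CD31+ arrays, so the lower level in that pair is a description and not a finding, and it carries no test here. The members have 8 probe sets between them, of which Gng4 has 3, and all 6 genes were among the 13453 that passed a filter on dim signals.

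The CD31+ cells were sorted from collagenase-digested marrow of C57BL/6J mice as cells without CD45, Ter119 or GFP, and the osteoblasts as GFP-positive cells without CD45, Ter119 or CD31. All mice were 6 to 8 weeks old and carried pOBcol2.3-GFP, a collagen I promoter fragment that drives GFP in osteoblasts, and the labels give their genotype otherwise as wild type. The groups were CD31+ cells after G-CSF (4 arrays), untreated CD31+ cells (4 arrays), osteoblasts after G-CSF (3 arrays) and untreated osteoblasts (3 arrays). G-CSF was given under the skin at 250 µg/kg, for 5 days by the sample titles and 7 days by the treatment protocol. The protocol gives the comparison mice vehicle, although the labels call them untreated. Nothing in the labels says how many mice made up a replicate or whether replicates came from separate mice, so the p-values measure the spread between these samples, which may be technical.

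G-CSF releases blood stem cells from the marrow and changes the stromal cells around them. Marrow vessels are mostly sinusoids, thin-walled vessels whose endothelial cells take up material from blood. The 6 genes come from unrelated families. Oit3 encodes a secreted protein with a zona pellucida (ZP) domain, known from liver, where its RNA marks sinusoidal endothelium. Acaa1b encodes a peroxisomal 3-ketoacyl-CoA thiolase, which carries out the last step of fatty acid beta-oxidation in that organelle. Gng4 encodes a gamma subunit of heterotrimeric G proteins. Prss35 encodes a secreted protein related to trypsin-like serine proteases. Podxl2 encodes endoglycan, a sialomucin of the CD34 family that can bind selectins. Npy encodes neuropeptide Y, a transmitter of sympathetic nerves.

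The sorted populations carried the markers of their names. All 20 endothelial identity genes were higher in untreated CD31+ cells than in untreated osteoblasts (limma, adjusted p under 0.05, against 12.8% of all genes higher), with a median log2 difference of 3.84, beside about 0 for all genes tested. The summed intensity of those 20 genes ran from 175950 to 230472 in G-CSF CD31+ cells, from 188980 to 229579 in untreated CD31+ cells, from 14481 to 29381 in G-CSF osteoblasts and from 10894 to 21011 in untreated osteoblasts. Of 8 tested osteoblast and osteocyte markers 2 were lower in untreated CD31+ cells than in untreated osteoblasts and 6 were not called (limma). The share of all genes called lower was 13.6%, and the median log2 difference of the 8 was -1.37. The CD31+ arrays also held bone-cell RNA. The summed intensity of 8 measured osteoblast and osteocyte markers, of 12 listed, was 19659 to 89858 in G-CSF CD31+ cells, 82229 to 145672 in untreated CD31+ cells, 167564 to 195027 in G-CSF osteoblasts and 109811 to 240753 in untreated osteoblasts. Neutrophil markers were bright in both sorts. The summed intensity of 11 of them, of 12 listed, was 171321 to 241940 in G-CSF CD31+ cells and 119765 to 190586 in untreated CD31+ cells. In osteoblasts it was 204766 to 276347 after G-CSF and 48092.5 to 292695 untreated. Untreated osteoblast replicate 2 stood apart, with the highest neutrophil, erythroid and B lineage marker sums and the lowest bone marker sum of its group. In untreated CD31+ replicate 1 the sum of 10 skeletal muscle genes was 129494, against 3014 to 7425 in the other untreated CD31+ arrays. The ratio of 3′ to 5′ actin signal, higher where RNA is degraded, was 2.62 to 3.76 in G-CSF CD31+ cells, 3.01 to 6.57 in untreated CD31+ cells, 2.71 to 10.5 in G-CSF osteoblasts and 3.83 to 11.0 in untreated osteoblasts. In these bulk samples, fewer cells of a type and less RNA per cell cannot be told apart.

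Promoter sequence was read for 5 of the 6 genes, in 8 windows of the 250 bases before an annotated start in RefSeq (build GRCm38.p6). The windows of Acaa1b, Prss35 and Npy are shown because each of these genes has a single annotated window and all hold the CCAAT box, so a reader can compare them. Each is written 5′ to 3′ on the gene's own strand, and capitals mark CCAAT boxes, which appear here as ATTGG, the same box read on the other strand. They lie at chr9:119157094-119157343 (minus strand) for Acaa1b, chr9:86743383-86743632 (plus strand) for Prss35 and chr6:49822460-49822709 (plus strand) for Npy.
Acaa1b: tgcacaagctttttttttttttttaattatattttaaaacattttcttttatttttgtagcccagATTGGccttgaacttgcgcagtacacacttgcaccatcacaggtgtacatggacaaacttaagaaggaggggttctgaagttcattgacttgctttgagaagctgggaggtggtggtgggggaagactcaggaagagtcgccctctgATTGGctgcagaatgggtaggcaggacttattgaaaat
Prss35: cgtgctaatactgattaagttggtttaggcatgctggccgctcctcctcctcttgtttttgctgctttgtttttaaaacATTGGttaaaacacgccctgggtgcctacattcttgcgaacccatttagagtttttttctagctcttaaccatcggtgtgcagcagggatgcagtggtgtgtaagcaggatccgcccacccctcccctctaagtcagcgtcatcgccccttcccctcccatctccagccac
Npy: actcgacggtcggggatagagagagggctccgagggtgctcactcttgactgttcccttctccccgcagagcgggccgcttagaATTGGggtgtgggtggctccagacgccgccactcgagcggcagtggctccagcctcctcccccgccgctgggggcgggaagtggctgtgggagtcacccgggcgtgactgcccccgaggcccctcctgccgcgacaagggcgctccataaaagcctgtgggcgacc
Acaa1b held the box 185 and 38 bases before its start, Prss35 171 bases and Npy 166 bases before. CCAAT on either strand was found in 5 of the 8 windows of the members and in 33.8% of 32851 windows of this length. Of the other motifs searched on both strands, the ETS core GGAAGT was in 1 member window (Npy) and 19.7% of all windows, and the RUNX site TGTGGT was in 1 (Podxl2) and 14% of all. The GATA site AGATAA (9.99% of all windows), the nuclear receptor element AGGTCA (14%) and the E box CACGTG (6.02%) were in 0 of the 8. Each motif was counted on its own, also where matches of different motifs overlapped, and a match describes letters in a window only.

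All 6 genes were lower in each G-CSF CD31+ array than in any untreated CD31+ array, which is the comparison they were selected on. Of all genes tested, 5.62% had groups that did not overlap in that direction and 1.14% were called lower by limma at an adjusted p under 0.05. The log2 changes, all taken after adding 16 to each intensity, ran from -3.28 for Gng4 to -2.55 for Podxl2 and Npy, and placed the members between the 5th and the 30th largest fall among 13453 genes. The rule set no numeric bound for a large fall. The rule did not use the osteoblast arrays. The difference between the untreated sorts draws in part on the untreated CD31+ arrays, which the rule used, so it is given as a description for every member. Only to order the text, they were grouped by it. The groups are genes brighter on average in untreated CD31+ cells, genes with no clear side, and genes brighter in untreated osteoblasts.

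**Figure D1:**
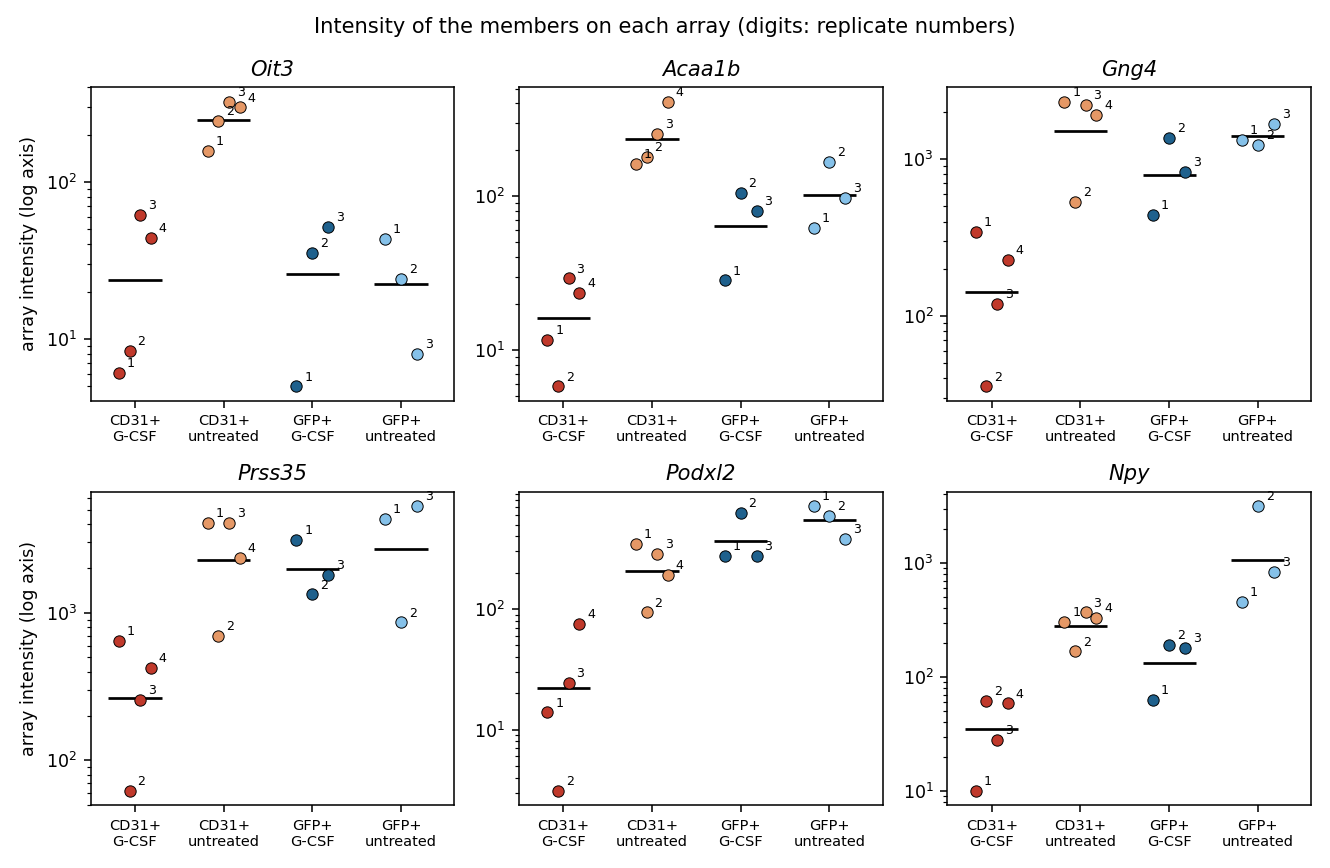
Array intensity of the 6 genes on a log axis, 1 point per array, with the replicate number beside it and a bar at the group mean taken on the log2 of intensity plus 16. The 4 G-CSF CD31+ arrays lie below the 4 untreated CD31+ arrays in every panel, while in osteoblasts the groups are apart for Npy alone.

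Oit3 (Entrez 18302, probe set 1425125_at) was the member with the clearest level on the CD31+ side. Markers of cells other than vessels lay on that side too. Of 10 skeletal muscle genes 5 were called higher in untreated CD31+ cells (limma), with a median log2 difference of 2.92. Of 8 smooth muscle and pericyte genes 2 were called higher and 1 lower, and of 6 megakaryocyte genes 1 higher, against 12.8% of all genes higher. Its intensity was 6.1, 8.4, 62 and 43.8 in G-CSF CD31+ replicates 1 to 4, against 156.7, 245.1, 324.7 and 297.6 in untreated CD31+ replicates 1 to 4. In osteoblasts it was 5, 35.4 and 51.8 after G-CSF and 43.5, 24.0 and 8.01 untreated. Osteoblasts of both groups and G-CSF CD31+ cells overlapped near 39.0, the intensity at which the filter on dim signals was set, and all untreated CD31+ arrays were far above it. The log2 change in CD31+ cells was -2.73 ± 0.48 (SE, n = 4 arrays a group; 6.62-fold). Untreated CD31+ cells were higher than untreated osteoblasts by 2.77 ± 0.52 on the log2 scale (SE, n = 4 and 3; 6.84-fold), and the groups did not overlap. Both sizes depend on the amount added before the log. With 1 added the change was -3.57 and the difference 3.52, and with 64 added they were -1.78 and 1.83. In osteoblasts the G-CSF change was 0.12 ± 0.55 (limma, adjusted p = 0.977, 95% interval -1.06 to 1.30).

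Markers of vessels and sinusoids are the background against which Oit3 can be read. Of the 20 endothelial identity genes 0 were called after G-CSF in CD31+ cells, and 1 had an unadjusted limma p under 0.05 (13.1% of all genes did), with a median log2 change of 0.03 beside -0.05 for all genes. With the replicate block 1 of the 20 was called, higher. Of 13 tested sinusoidal markers 0 were called and 2 had an unadjusted p under 0.05, with a median of -0.33 and a lowest value of -1.50, and with the block 1 of the 13 was called lower. Their summed intensity overlapped, at 117459 to 169416 in G-CSF CD31+ cells and 147160 to 173057 in untreated CD31+ cells. Stab2, a scavenger receptor of sinusoids, had 3142, 4112, 16774 and 3529 in G-CSF CD31+ cells, against 8677, 10676, 13811 and 12956 in untreated CD31+ cells. Replicate 3 of the G-CSF arrays was above every untreated array for Stab2, and replicates 1, 2 and 4 were below all of them. The Stab2 change was -1.11 ± 0.51 (limma, adjusted p = 0.367), and that of the related receptor Stab1 was -0.41 ± 0.41 (limma, adjusted p = 0.793). Oit3 was likewise highest in replicate 3 of the G-CSF arrays, although still below the untreated ones.

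The vessel markers Cdh5, Pecam1 and Kdr did not pass the test after G-CSF. Cdh5, the endothelial junction cadherin, changed by 0.03 ± 0.22 in CD31+ cells (limma, adjusted p = 0.980). Pecam1, which encodes CD31 itself, changed by 0.43 ± 0.28 (limma, adjusted p = 0.616). Kdr, a VEGF receptor, changed by -0.36 ± 0.21 with groups that did not overlap (limma, adjusted p = 0.533). Liver is the best-known setting of Oit3 and Acaa1b. Of 7 hepatocyte markers found on the array 1 passed the filter on dim signals, and their summed intensity was 118.7 to 217 in G-CSF CD31+ cells and 154.7 to 196.2 in untreated CD31+ cells.

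Of 12 other genes with a ZP domain found on the array, 2 passed the filter. Neither was called after G-CSF in CD31+ cells (1.6% of all genes called) or in osteoblasts (0.23%), and 0 had an unadjusted limma p under 0.05 in either. Eng, which encodes the endothelial TGF-beta co-receptor endoglin, was higher in untreated CD31+ cells than in untreated osteoblasts by 3.05 ± 0.28 (limma, adjusted p = 1.82e-06), where 26.4% of all genes were called in either direction.

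Acaa1b (Entrez 235674, probe set 1424451_at) was also brightest in untreated CD31+ cells, by a smaller margin. Its intensity was 11.6, 5.8, 29.2 and 23.5 in G-CSF CD31+ replicates 1 to 4, against 162.4, 180.2, 251.9 and 411.6 in untreated CD31+ replicates 1 to 4. It was 28.3, 104 and 80.4 in G-CSF osteoblasts and 62, 166 and 97 in untreated osteoblasts. All G-CSF CD31+ arrays were under the dim limit, and the osteoblast groups overlapped. The change in CD31+ cells was -2.97 ± 0.40 (SE, n = 4 arrays a group; 7.82-fold). With every G-CSF array this dim its size depends on the amount added before the log, and it was -3.89 with 1 and -1.90 with 64 added. Untreated CD31+ cells exceeded untreated osteoblasts by 1.11 ± 0.43 (SE, n = 4 and 3; 2.15-fold), yet untreated osteoblast replicate 2 lay just above the lowest CD31+ array, so these groups overlapped. Without that array, the osteoblast array with the most blood-cell RNA, they did not. In osteoblasts the G-CSF change was -0.55 ± 0.46 (limma, adjusted p = 0.823, 95% interval -1.52 to 0.43).

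Acaa1b has a close copy, Acaa1a, which encodes the other peroxisomal thiolase and lies near it on chromosome 9. Probe set 1424451_at is assigned to Acaa1b alone, but 2 further probe sets are assigned to both genes and were kept out of the gene tests. One of these, 1416946_a_at, ran from 862.3 to 1152 in G-CSF CD31+ cells and from 851.8 to 1457 in untreated CD31+ cells. The other, 1416947_s_at, ran from 3318 to 4426 in G-CSF CD31+ cells and from 3240 to 4920 in untreated CD31+ cells. The groups overlapped on both, with log2 changes of -0.08 and 0.08. Acaa1a itself changed by -0.23 ± 0.17 in CD31+ cells (limma, adjusted p = 0.689) and by -0.04 ± 0.20 in osteoblasts (limma, adjusted p = 0.979). The dimmer Acaa1a probe set, 1456011_x_at, changed by 0.23 ± 0.30 and 0.25 ± 0.34, with groups that overlapped. The lower level was thus measured by the Acaa1b probe set and by neither the shared probe sets nor those of Acaa1a, and how the copies share hybridisation is uncertain.

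Other enzymes of fatty acid breakdown did not pass the test after G-CSF. Of 16 tested genes of peroxisomal beta-oxidation 0 were called in CD31+ cells and 0 in osteoblasts, with median log2 changes of -0.05 and -0.02, and 1 in each had an unadjusted limma p under 0.05. Of 17 tested genes of mitochondrial beta-oxidation 0 were called in either sort, with medians of -0.05 and -0.08, and 2 in each had an unadjusted p under 0.05. Acaa2, the mitochondrial thiolase, changed by 0.22 ± 0.20 in CD31+ cells (limma, adjusted p = 0.770). With replicate number as a block, limma called 5 of the 80 tested genes of the 7 pathway lists lower in CD31+ cells, where 3.87% of all genes were called lower in that fit, and 0 in osteoblasts (0.476% in either direction). Among the 5 were Pex11a, a peroxisome division factor, at -0.94 (adjusted p = 0.0312) and Hadh, a mitochondrial dehydrogenase of this route, at -0.77 (adjusted p = 0.0294). Between untreated sorts, Eci1, a mitochondrial enoyl-CoA isomerase, was higher in CD31+ cells by 0.78 ± 0.24 (limma, adjusted p = 0.0273).

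Gng4 and Prss35 were bright in both untreated sorts, where their groups overlapped. Gng4 (Entrez 14706) is read by 3 probe sets, of which 1447669_s_at was the brightest and stood for the gene. Its intensity was 343.5, 35.6, 119.4 and 227.5 in G-CSF CD31+ replicates 1 to 4, against 2327, 532.5, 2209 and 1914 in untreated CD31+ replicates 1 to 4. It was 441.7, 1369 and 832 in G-CSF osteoblasts and 1324, 1231 and 1683 in untreated osteoblasts. Replicate 2 was the lowest array in both CD31+ groups, and the osteoblast groups overlapped through G-CSF replicate 2. The change in CD31+ cells was -3.28 ± 0.56 (SE, n = 4 arrays a group; 9.75-fold), and that in osteoblasts was -0.80 ± 0.65 (limma, adjusted p = 0.816, 95% interval -2.19 to 0.58). Untreated CD31+ cells and untreated osteoblasts overlapped, with a difference of 0.11 ± 0.61 (95% interval -1.18 to 1.41), which was 0.61 without untreated CD31+ replicate 2 and -0.09 without replicate 1.

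The dimmer Gng4 probe sets agreed in direction in CD31+ cells but not in osteoblasts. Probe set 1417943_at had 14.6, 4, 8.2 and 4.6 in G-CSF CD31+ cells, against 132.2, 36.3, 119.3 and 61.6 in untreated CD31+ cells, and in osteoblasts 24.2, 43.6 and 3.15 after G-CSF, against 99.1, 49.8 and 94.96 untreated. Neither pair overlapped, and the log2 changes were -2.01 ± 0.40 in CD31+ cells and -1.40 ± 0.46 in osteoblasts. Probe set 1417944_at had 35, 4.6, 48.1 and 44.9 in G-CSF CD31+ cells, against 141.9, 32.3, 146.1 and 115 in untreated CD31+ cells, and in osteoblasts 87.6, 177 and 31.9 after G-CSF, against 56.3, 29.8 and 172 untreated. Both of its pairs overlapped, with changes of -1.33 ± 0.55 and 0.21 ± 0.63. In the osteoblasts the 3 probe sets of this gene therefore disagreed in sign.

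Other subunits of G protein beta-gamma dimers, 13 of them tested, had 0 calls after G-CSF in either sort, with medians of 0.13 in CD31+ cells and 0.07 in osteoblasts, and an unadjusted limma p under 0.05 for 0 and 1. Gng2 changed by -0.31 ± 0.31 in CD31+ cells (limma, adjusted p = 0.794) and Gng11 by -0.03 ± 0.28 (limma, adjusted p = 0.981). Between the untreated sorts 4 of the 13 were higher in CD31+ cells and 2 lower (12.8% and 13.6% of all genes). Gng11 was higher by 1.68 ± 0.31 (limma, adjusted p = 0.000824) and Gnb1, a beta subunit, by 1.36 ± 0.25 (limma, adjusted p = 0.000963). Gng8 had a log2 difference of -2.00 ± 0.43 (limma, adjusted p = 0.00315) and Gng7 one of -1.34 ± 0.40 (limma, adjusted p = 0.0227).

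Prss35 (Entrez 244954, probe set 1434195_at) had the largest standard error of the 6 in every comparison. Its intensity was 648.6, 61.9, 255.2 and 422.6 in G-CSF CD31+ replicates 1 to 4, against 4078, 698, 4053 and 2350.4 in untreated CD31+ replicates 1 to 4. It was 3139, 1334 and 1816 in G-CSF osteoblasts and 4354, 862 and 5294 in untreated osteoblasts. The highest G-CSF CD31+ array was just under the lowest untreated one, replicate 2, and both osteoblast groups overlapped. The change in CD31+ cells was -3.04 ± 0.71 (SE, n = 4 arrays a group; 8.22-fold), and in osteoblasts -0.46 ± 0.82 (limma, adjusted p = 0.940, 95% interval -2.21 to 1.29). The untreated sorts differed by -0.25 ± 0.77 and overlapped (95% interval -1.88 to 1.39). That difference turned sign with 1 array left out, to 0.32 without untreated CD31+ replicate 2, and it was -1.06 without untreated osteoblast replicate 2.

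Of 14 tested extracellular serine proteases and their inhibitors, 0 were called after G-CSF in CD31+ cells and 0 in osteoblasts, with medians of -0.43 and 0.30. An unadjusted limma p under 0.05 was reached by 6 of them in CD31+ cells (13.1% of all genes) and 3 in osteoblasts (8.85%). With the replicate block 3 were called lower (3.87% of all genes) in CD31+ cells, namely Serpinf1, a secreted serpin known as PEDF, at -2.00 (limma, adjusted p = 0.0127), and the proprotein convertases Pcsk6 at -2.01 (limma, adjusted p = 0.0224) and Pcsk5 at -1.83 (limma, adjusted p = 0.00766). Prss23, a related secreted protease, changed by -0.41 ± 0.29 in CD31+ cells (limma, adjusted p = 0.667) and by 1.22 ± 0.34 in osteoblasts (limma, adjusted p = 0.227). Between untreated sorts 0 of the 14 were higher and 4 lower in CD31+ cells, led by Serping1, the C1 inhibitor, at -2.17 ± 0.29 (limma, adjusted p = 7.01e-05) and Htra1 at -2.09 ± 0.31 (limma, adjusted p = 0.00015).

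Podxl2 and Npy were brighter in untreated osteoblasts than in untreated CD31+ cells. Podxl2 (Entrez 319655, probe set 1455622_at) had 13.9, 3.1, 24.3 and 74.9 in G-CSF CD31+ replicates 1 to 4, against 346.2, 93.6, 285.6 and 191.2 in untreated CD31+ replicates 1 to 4. It had 277.2, 626 and 274 in G-CSF osteoblasts and 712.7, 587 and 382 in untreated osteoblasts. Of the G-CSF CD31+ arrays, replicate 4 alone was above the dim limit, and the osteoblast groups overlapped. The change in CD31+ cells was -2.55 ± 0.47 (SE, n = 4 arrays a group; 5.87-fold). It was -3.48 with 1 and -1.62 with 64 added before the log. In osteoblasts it was -0.56 ± 0.54 (limma, adjusted p = 0.857, 95% interval -1.71 to 0.59). Untreated CD31+ cells were lower than untreated osteoblasts by a log2 difference of -1.33 ± 0.51 (SE, n = 4 and 3; 2.51-fold) with no overlap.

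The closest relatives of Podxl2 lay on the CD31+ side. Podxl, which encodes podocalyxin, was higher in untreated CD31+ cells than in untreated osteoblasts by 4.50 ± 0.21 (limma, adjusted p = 6.51e-09; 22.7-fold). Cd34, the stem cell and vessel antigen that names the family, was higher by 2.93 ± 0.26 (limma, adjusted p = 1.54e-06). After G-CSF in CD31+ cells Podxl changed by 0.02 ± 0.19 (limma, adjusted p = 0.985) and Cd34 by 0.54 ± 0.24 (limma, adjusted p = 0.352). Of the 15 tested genes of the CD34 family, the selectins and the enzymes that build their ligands, 0 were called after G-CSF in either sort, and 4 in each had an unadjusted p under 0.05. Between untreated sorts 8 of the 15 were higher in CD31+ cells and 1 was lower, among them Sele, E-selectin, at 3.02 ± 0.39 (limma, adjusted p = 4.27e-05). The 1 lower was Gcnt1, a branching enzyme of O-glycans, at -1.14 ± 0.40 (limma, adjusted p = 0.0462).

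Npy (Entrez 109648, probe set 1419127_at) was lower after G-CSF in both sorts by description, and the rule did not use the osteoblast arrays. Whether both sorts came from the same mice is not known here, so the osteoblast values may not be independent of the CD31+ ones. Its intensity was 63.4, 192 and 179 in G-CSF osteoblasts, against 457.1, 3152 and 831 in untreated osteoblasts. The groups did not overlap, and the highest value was that of untreated replicate 2. The log2 change was -2.87 ± 0.61 (7.33-fold, n = 3 arrays a group, 95% interval -4.18 to -1.57), the 3rd largest fall of 13453 genes, with an unadjusted limma p of 0.000289 and an adjusted p of 0.0816, so it did not pass the threshold of 0.05. With replicate number as a block the adjusted p was 0.0344, and without untreated osteoblast replicate 2 the change was -2.10 with an adjusted p of 0.0381 (limma). Over the alternatives the adjusted p ran from 0.0344 to 0.513. Pairs with the same number differed by -2.57, -3.93 and -2.12, lower after G-CSF in 3 of 3.

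Of all 6 members 0 were called by limma after G-CSF in osteoblasts, where 0.23% of all genes were called, and 1 of 6, Npy, had an unadjusted p under 0.05, as did 8.85% of all genes. With the probe set that stood for each gene, groups that did not overlap in the lower direction were seen for Npy alone, against 5.69% of all genes, while the dimmer Gng4 probe set 1417943_at also had such groups. The osteoblast changes of the others ran from -0.80 to 0.12, and their intervals reach from -2.21 to 1.30. Whether a member's change differed between the sorts was not tested, since the CD31+ arrays chose the members.

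**Figure D2:**
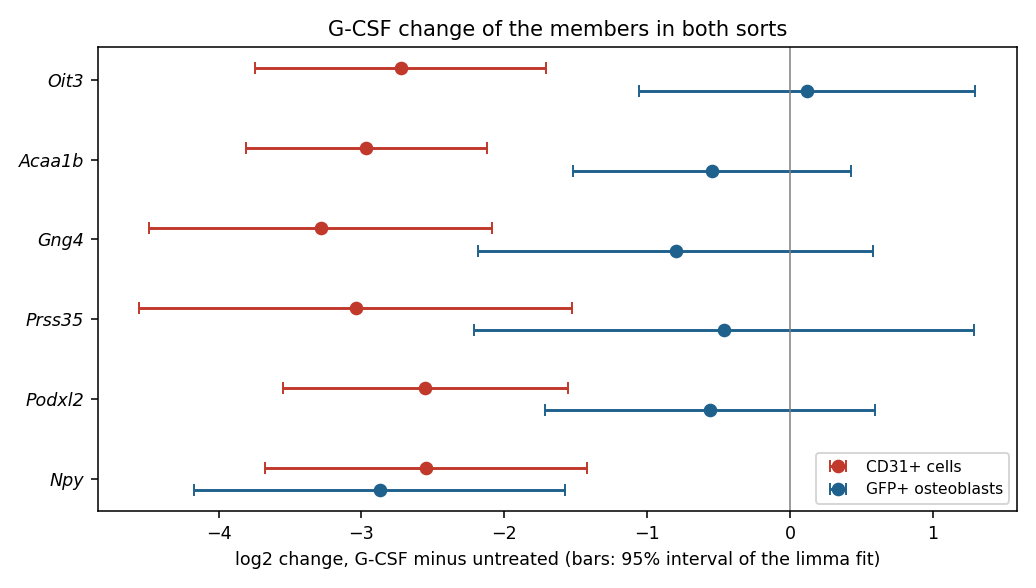
Log2 change after G-CSF of the 6 genes in CD31+ cells and in GFP+ osteoblasts, with 95% intervals of the limma fit. The CD31+ values chose the genes, while in osteoblasts the interval of Npy alone, from -4.18 to -1.57, lies wholly below 0.

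In CD31+ cells Npy had 10, 61.3, 28.2 and 58.7 in G-CSF replicates 1 to 4, against 301.7, 167.4, 368.9 and 332.4 in untreated replicates 1 to 4. Replicate 2 was the lowest untreated array and the highest G-CSF array, so its pair was the closest. The change was -2.55 ± 0.53 (SE, n = 4 arrays a group; 5.86-fold). It was -3.09 with 1 and -1.78 with 64 added before the log. Untreated CD31+ cells were below untreated osteoblasts by a log2 difference of -1.86 ± 0.57 (SE, n = 4 and 3; 3.64-fold), with no overlap. Without untreated osteoblast replicate 2 the difference was -1.09 (2.13-fold). Of the NPY family, 3 of 8 genes found on the array passed the filter, and 0 were called in any of the comparisons, with 0 at an unadjusted limma p under 0.05. The receptor Npy1r changed by 0.72 ± 0.52 in CD31+ cells (limma, adjusted p = 0.672) and 0.84 ± 0.60 in osteoblasts (limma, adjusted p = 0.773). Its dimmer probe set 1426054_at changed by -0.26 ± 0.28 and -0.50 ± 0.33, so the probe sets of this receptor disagreed in sign. Dpp4, the peptidase that trims NPY, changed by -0.47 ± 0.49 in CD31+ cells (limma, adjusted p = 0.811) and -1.16 ± 0.57 in osteoblasts (limma, adjusted p = 0.589).

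Erythroid, B lineage, reticular stromal and adipocyte marker sums were lower after G-CSF in osteoblasts, with no overlap, as Npy was. The reticular stromal sum of 10 markers was 39809 to 43019 in G-CSF osteoblasts, against 50134 to 89634 in untreated osteoblasts. Of these 10 genes 1 was called lower in osteoblasts and 5 had an unadjusted limma p under 0.05, with a median change of -0.55. With the replicate block 2 of the 10 were called lower there. The summed intensity of 8 erythroid markers, of 11 listed, was 1321 to 3818 in G-CSF osteoblasts, against 7450 to 30569 in untreated osteoblasts, and 1391 to 10812 in G-CSF CD31+ cells, against 9073 to 23061 in untreated CD31+ cells. Of 7 tested erythroid genes 0 were called in osteoblasts, all 7 had an unadjusted limma p under 0.05, and the median change was -2.26. In CD31+ cells 2 of the 7 were called lower, with a median of -2.43. The B lineage sum of 7 markers, of 8 listed, was 2354 to 3998 in G-CSF osteoblasts and 5615 to 9416 in untreated osteoblasts, and 1121 to 3310 in G-CSF CD31+ cells and 3555 to 10229 in untreated CD31+ cells. The nerve and Schwann cell sum of 10 markers, of 12 listed, was 1536 to 3284 in G-CSF osteoblasts and 2582 to 4442 in untreated osteoblasts, which overlapped, and 542.5 to 978.7 in G-CSF CD31+ cells and 1136 to 1365 in untreated CD31+ cells, which did not. Of 6 tested nerve and Schwann cell genes 0 were called in either sort, with 1 at an unadjusted limma p under 0.05 in osteoblasts and 2 in CD31+ cells, and the median changes were 0.02 and -0.35. With the replicate block, limma called 1 of the 7 erythroid genes lower in osteoblasts, and 6 of 7 erythroid, 2 of 7 B lineage and 2 of 6 nerve and Schwann cell genes lower in CD31+ cells, where 3.87% of all genes were called lower with the block. Untreated osteoblast replicate 2, the array with the most Npy, had the highest erythroid, B lineage and nerve and Schwann cell sums of its group. It had the lowest reticular stromal sum of that group. The part of these cells in the Npy values was not tested.

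Read by untreated levels alone, 3 of the 6 members had groups that did not overlap between sorts. The share over all genes was 32.6%, and nothing is read from the pair of values, since the members were selected as high in these untreated CD31+ arrays. Oit3 was on the CD31+ side and Podxl2 and Npy on the osteoblast side, Acaa1b was higher in CD31+ cells on average with overlap, and Gng4 and Prss35 overlapped widely. Without untreated osteoblast replicate 2 the count was 5 of 6, with Acaa1b then on the CD31+ side and Prss35 on the osteoblast side.

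**Figure D3:**
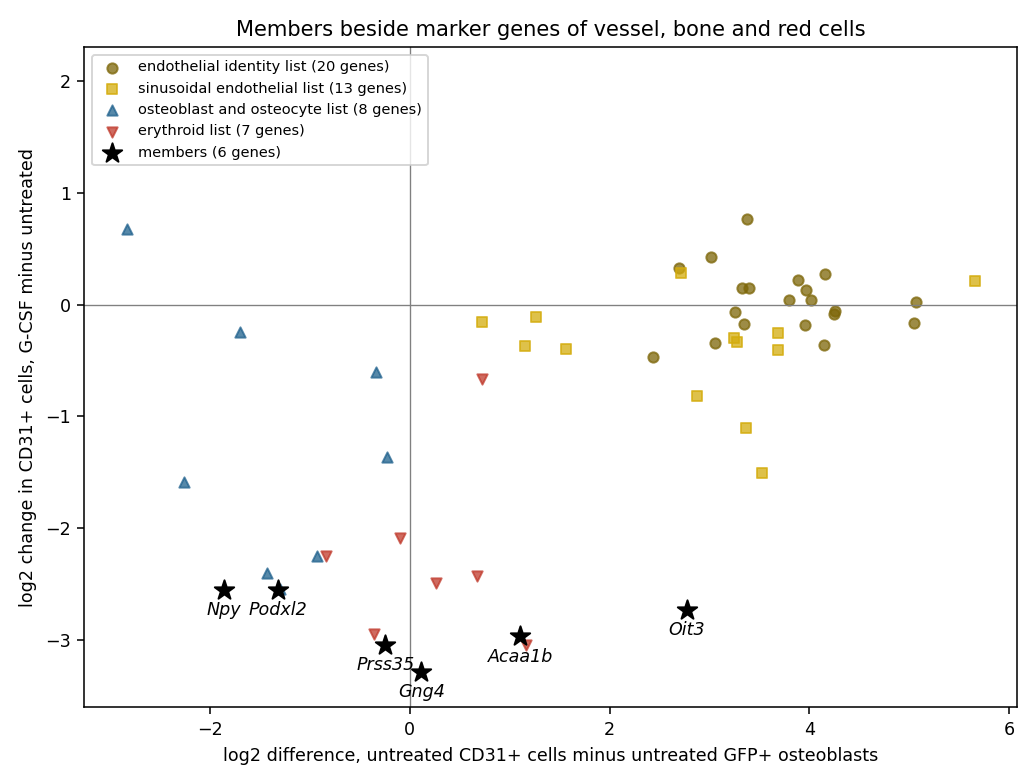
Log2 change after G-CSF in CD31+ cells against the log2 difference between untreated CD31+ cells and untreated osteoblasts, for the 6 genes (stars) and 4 marker lists. Endothelial identity genes lie to the right around no change. Bone markers lie to the left, from -2.84 to -0.23, although limma called 2 of the 8 lower between the untreated sorts. Their changes in CD31+ cells were between -2.54 and 0.67. Oit3 is the member farthest to the right, at 2.77.

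The lower levels of the members in CD31+ cells came beside lower values of some bone and reticular stromal markers in the same arrays. Of 8 tested osteoblast and osteocyte markers 1 was called lower in CD31+ cells and 6 had an unadjusted limma p under 0.05, with a median change of -1.48. With the replicate block 4 of the 8 were called lower. In osteoblasts 0 of the 8 were called, 1 had an unadjusted p under 0.05, and the median was 0.05. Of 10 reticular stromal markers 4 were called lower in CD31+ cells (1.14% of all genes), with a median of -0.72, and their summed intensity overlapped, at 27404 to 48984 in G-CSF CD31+ cells and 35339 to 44495 in untreated CD31+ cells, with the higher median after G-CSF (42715 against 40538). With the replicate block 4 of the 10 were again called lower, of which 3 were called in both fits. The summed intensity of 6 adipocyte markers, of 8 listed, did not overlap in either sort, at 933.5 to 1809 in G-CSF CD31+ cells and 2098 to 3126 in untreated CD31+ cells, and 1826 to 2700.0 in G-CSF osteoblasts and 5026 to 7344 in untreated osteoblasts. Most of that sum in the untreated groups was Adipoq, which encodes adiponectin and is also on the reticular list. Its mean log2 value was 11.09 in untreated CD31+ cells and 12.45 in untreated osteoblasts. Of the 3 adipocyte genes tested in CD31+ cells, Adipoq was called lower (-3.43) and Dgat2, an enzyme of triglyceride synthesis, higher (1.42). In osteoblasts Adipoq alone was called, lower. The median change of the 3 genes was -0.52 in CD31+ cells and 0.75 in osteoblasts. Replicate 2 of the G-CSF CD31+ arrays had the least Gng4, Prss35 and Podxl2 and the lowest bone marker sum of its group. Replicate 2 of the untreated CD31+ arrays did so in its group, and untreated osteoblast replicate 2 had the least Gng4 and Prss35 and the lowest bone marker sum of its own. G-CSF osteoblast replicate 2 differed from this, with the lowest bone marker sum and the least Prss35 of its group but the most Gng4 and Podxl2. The part of these cells in the members' values was not tested.

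**Figure D4:**
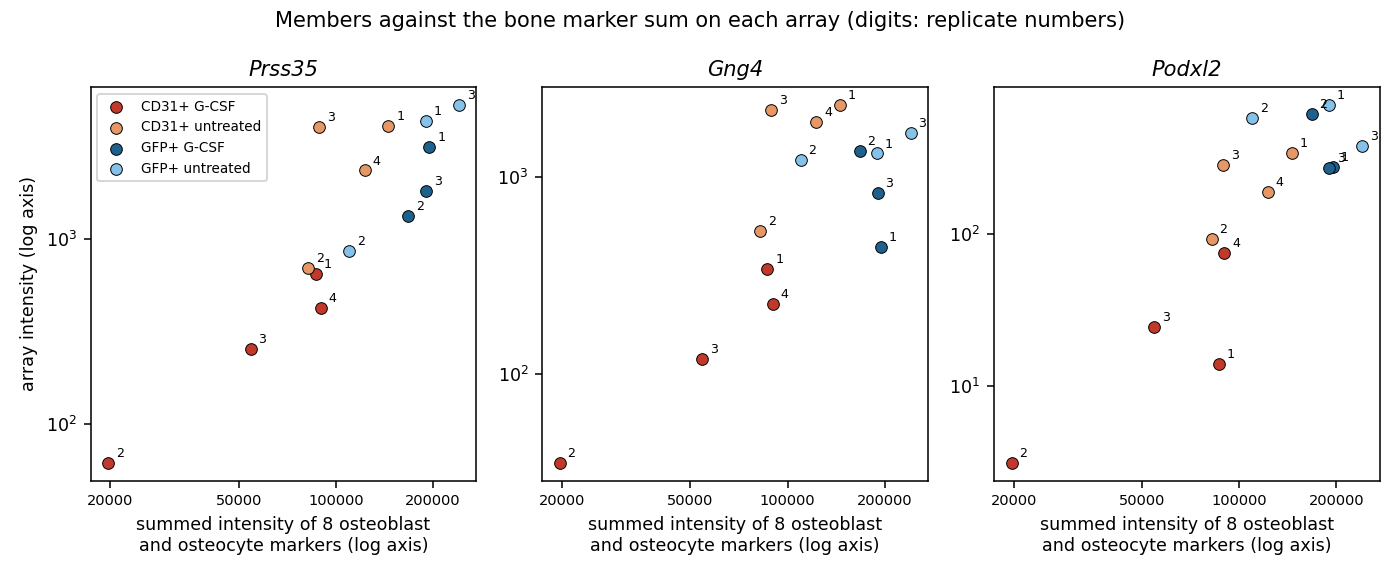
Intensity of Prss35, Gng4 and Podxl2 against the summed intensity of 8 osteoblast and osteocyte markers on each of the 14 arrays, both on log axes, with replicate numbers. The array at the lower left of each panel is G-CSF CD31+ replicate 2, with a sum of 19659. The sums of the G-CSF CD31+ arrays (19659 to 89858) and of the untreated CD31+ arrays (82229 to 145672) overlap. How far the genes follow the sum was not tested.

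The genes whose profile over the 14 arrays was most like each member are given with Pearson's r, which is a description, since the arrays share groups, sorts and bone-cell content. Prss35 was most like Cemip (r = 0.98), Metrnl (0.97) and Col24a1 (0.97), and Gng4 most like Kazald1 (0.94), Me1 (0.93) and Tmem119 (0.93). Podxl2 was most like Hebp2 (0.96), Cpq (0.95) and C1qtnf4 (0.95), and Npy most like Mylk3 (0.95), Mtfp1 (0.92) and Pklr (0.91). Oit3 was most like Susd4 (0.90), Adgrg6 (0.88) and Plxna4 (0.85), and Acaa1b most like Vcam1 (0.86), Paqr9 (0.86) and C1qtnf12 (0.85). Each of these genes was picked by its likeness over these same arrays, so changes like those of its member follow from the choice. Susd4 was higher in untreated CD31+ cells than in untreated osteoblasts, with a log2 difference of 1.80. After G-CSF in CD31+ cells its change was -2.26. Cemip and Kazald1 had changes of -2.74 and -2.47 in CD31+ cells and of -0.33 and -0.46 in osteoblasts, beside -3.04 and -3.28 in CD31+ cells for Prss35 and Gng4.

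Profiles of members were compared in the same way over the 14 arrays, as a description. All members were selected on a fall across the CD31+ arrays among these, so high r between them is partly built in, and nothing is read from it. Gng4 and Prss35 had r = 0.89, Gng4 and Podxl2 0.85, Acaa1b and Gng4 0.82, and Prss35 and Podxl2 0.81. Npy had 0.77 with Podxl2, 0.70 with Acaa1b and 0.70 with Gng4. Oit3 had 0.76 with Acaa1b and between 0.17 and 0.44 with the other four. Once group means were taken out, Gng4 and Prss35 had 0.70, Gng4 and Podxl2 0.68, Acaa1b and Npy 0.62, Oit3 and Acaa1b 0.61, and Prss35 and Npy -0.48. Prss35 and Npy part in untreated osteoblast replicate 2, which had the least Prss35 and the most Npy of its group.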

How the data were processed

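Total RNA of sorted cells was labelled from 100 ng with biotin and hybridised, per the labels' protocols. The deposited values are array intensities, made with Affymetrix Expression Console 1.1 per the submitters' processing notes, and the summarising algorithm is not given in the sources used here. Their 2% trimmed means ran from 500.003 to 500.004 on all arrays, so no further normalisation was applied. Arrays correlated at 0.740 to 0.973, and their number limits the precision. Probe sets in the dimmest fraction of 0.333 (mean under 39.0) were dropped, as were those with several symbols (932) or none (9160), and the brightest probe set stood for its gene. Log2 of intensity plus 16 was fitted for 4 groups in limma 3.58.1 (R 4.3.3, variance trend), with Benjamini-Hochberg adjustment over 13453 genes; a call is an adjusted p under 0.05. The code was tested on simulated data.

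The members and all gene lists were chosen with earlier results of these data known. The text names the members, list genes by a fixed rule (the 2 largest calls in each direction, chosen relatives and vessel markers), and the 3 genes most like each member; Vcam1 is named by that last rule, and the genes called only with the replicate block and Adipoq and Dgat2 were named after their values were seen. The main fit did not pair the samples. Replicate numbers paired them only in the alternative fit with the replicate block. That block was tried since same-numbered arrays deviated together, with r from 0.102 to 0.377. CD31+ replicate 4, at 0.102, did not match its own number best. Alternatives covered pseudocount, scaling, filter, probe sets, block and each array left out. Promoters and motifs came from RefSeq tables.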

Additional observations from a re-analysis of the deposited data

Results flagged for a closer look

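Within the CD31+ groups, 44 sets of 4 arrays were examined for an array far from the other 3, by the share of the group's range taken up by its gap to the nearest array (Dixon's ratio, at its 95% critical value), and about 1 in 20 would pass by chance. For Gng4 (1447669_s_at), untreated CD31+ replicate 2 was far below the rest (0.866). The same array was far above the rest for Cd34 (0.882) and Pecam1 (0.902), with intensities of 8068 and 1352, against 5756 to 5990.4 and 675.3 to 722.9 in the other untreated CD31+ arrays. G-CSF CD31+ replicate 3 was far above the rest for Stab2 (0.84) and far below them for Acaa2 (0.912), where it had 1609 and the others had 2186 to 2251.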

How the results depend on the processing

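Of 468 values of single members under 28 alternatives, 2 of them chosen after seeing the data, 452 kept their side of the threshold or stayed within the replicate spread, 7 moved by more and 4 passed the threshold. Sign turned 5 times in osteoblasts and 6 times in the untreated difference, there 3 times each for Prss35 (-1.34 to 0.32) and Gng4 (-0.18 to 0.61), whose main values were near 0. All members that were measured stayed lower after G-CSF in CD31+ cells in each alternative, from -3.89 to -1.33. With a stricter filter on dim signals, 4 of the 6 were measured and Acaa1b and Oit3 were not. The number of members called in osteoblasts was 1, Npy, instead of 0 with a pseudocount of 64 (adjusted p = 0.0485, limma), the replicate block (0.0344), the number of decimals in the deposited values as a batch term (0.0359) and, among arrays left out one at a time, without untreated osteoblast replicate 2 (0.0381), so leaving out 1 array gave 0 to 1. The decimals mark osteoblast replicates 2 and 3 in both groups. In osteoblasts, sign turned for Gng4 with the brighter of its unsuffixed probe sets, 1417944_at (0.21), while 1417943_at had -1.40. Sign also turned for Prss35 without untreated replicate 3 (0.018; -1.28 to 0.018 over arrays left out), and for Oit3 without untreated replicate 3 (-0.22), G-CSF replicate 2 (-0.03) or G-CSF replicate 3 (-0.23; -0.23 to 0.62 over arrays left out). Called pathway genes in CD31+ cells numbered 1 with quantile normalisation, 4 from the compared arrays alone, 5 with the replicate block, 1 without the 2 arrays high in blood or muscle genes (untreated osteoblast replicate 2 and untreated CD31+ replicate 1) and 0 to 3 with 1 array left out, highest without untreated osteoblast replicate 2. In osteoblasts they numbered 4 without those 2 arrays and 0 to 4 with 1 left out, highest without untreated osteoblast replicate 2 (Cd34, St14, Selplg and F10, all higher). Members whose untreated groups did not overlap numbered 5 instead of 3 without untreated osteoblast replicate 2 and without both of those arrays, and 3 to 5 over arrays left out. Over all genes the CD31+ calls were 61 higher and 154 lower (28.4% higher), 81 and 54 (60%) after centring on the median, which moved the median of all genes by 0.18, 39 and 68 (36.4%) after quantile normalisation, and 139 and 521 with the replicate block; the block gave 45 higher and 19 lower calls in osteoblasts instead of 25 and 6. It changed no call of the named relatives and vessel markers, and its effect on the lists is given with them. The contrast between untreated sorts was not fitted with the block. The causes were not tested.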
